A study of Mus musculus with 12 samples.

Results

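The cells described here were 309 barcodes of the stromal vascular fraction (SVF) of mouse white adipose tissue that were gated as group 2 innate lymphoid cells (ILC2s). They made up 0.245% of the 126095 barcodes kept from 12 single-cell RNA sequencing libraries. A barcode was kept at 700 to 22000 UMIs, 200 to 6000 genes and under 25% mitochondrial UMIs. A UMI is the tag that lets copies of 1 captured transcript be counted as 1. The gate then asked for at least 1 UMI of Gata3, of Ptprc (CD45) and of Il7r or Il1rl1, and for no UMI of Cd3d, Cd3e, Cd3g, Ncr1, Klrb1c, Adgre1, Cd79a, Pdgfra or Cpa3. The cells were thus chosen by the UMIs of these 13 genes, so their levels are given as a description and enter no test. Male mice aged 12 weeks gave the SVF of epididymal (eWAT) and inguinal (iWAT) fat, the cells left after collagenase digestion of 300 mg biopsies once floating adipocytes were removed. The arms were WT-Veh (lean C57BL/6J mice given methylcellulose vehicle), ob/ob-Veh (obese mice homozygous for Lepob, which lack leptin, given the same vehicle) and ob/ob-Rosi (Lepob/Lepob mice given the PPARγ agonist rosiglitazone at 30 mg/kg), each by gavage morning and evening for 3 days. Each arm and depot had 2 libraries labelled as biological replicates. No WT mouse given rosiglitazone was analysed here, so an effect of the drug could be read in obese mice only.

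ILC2s are tissue-resident lymphocytes that carry no rearranged antigen receptor and answer to tissue signals rather than to antigen. GATA3 and RORα, encoded by Gata3 and Rora, are needed for their development, and IL-33, TSLP and IL-7 reach them through receptors that include the products of Il1rl1 (ST2) and Il7r. Once activated they release IL-5, IL-13, GM-CSF and amphiregulin, the products of Il5, Il13, Csf2 and Areg. In adipose tissue they are known as a source of IL-5 and IL-13 for eosinophils and alternatively activated macrophages and have been tied to beiging, and PPARγ, the target of rosiglitazone, is known to act in ILC2s as well.

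The libraries held 20132553 to 92475986 UMIs, and the median UMIs of kept barcodes ranged from 1132 to 4961. The gated cells themselves held a median of 1765 UMIs, beside 2304 in the CD3 cells and 2161 in the NK-gated cells used for comparison below. The library labelled iWAT WT-Veh replicate 1 stood apart from the other 11. It had the lowest median depth, and a UMI of Cd3d, Cd3e or Cd3g was found in 6142 of its 17063 kept barcodes, that is 3600 per 10000 against 95.8 to 1092 per 10000 in the others. Its share of gated cells is thus taken over another mix of barcodes, and whether it holds cells of another tissue was not tested. The shares of cells with Rora and Areg, the main share differences and the main counts of called genes are therefore also given without it. Mean levels, fold changes and the alternative iWAT shares include it. Any 2 libraries shared 7 to 99 kept barcodes, and 1 gated barcode occurred in both iWAT ob/ob-Rosi replicate 1 and eWAT ob/ob-Veh replicate 1.

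Areg and Rora, the given markers that the gate did not use, checked the label. Rora was found in 221 of the 309 gated cells (71.5%) and Areg in 139 (45.0%), against 11.2% and 1.12% of 983 NK-gated cells (Ncr1 or Klrb1c positive, Ptprc positive, and with no UMI of Gata3, Cd3d, Cd3e, Cd3g, Adgre1, Cd79a, Pdgfra or Cpa3) and 43.6% and 25.3% of 289 CD3 cells that passed the same gate but for Cd3d, Cd3e or Cd3g. Without iWAT WT-Veh replicate 1 the shares in the gated cells were 75.7% for Rora and 49.6% for Areg. When each cell was thinned to 700 UMIs, Areg was found in 32.0% of the gated cells, 15.2% of the CD3 cells and 0.610% of the NK-gated cells. The markers were often found together: 123 of the 139 cells with Areg also had Rora. All 37 cells with Il5 and all 11 cells with Il13 had Rora. Of the other known ILC2 markers, Ptgdr2 (the prostaglandin D2 receptor CRTH2) and Rxrg were at 0 UMIs in the gated cells, Nmur1 was found in 1 library, and Il17rb, the IL-25 receptor chain, was at or below 71.5 CPM in the 6 libraries with at least 10 gated cells.

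The gate was permissive at its edges. A single Gata3 UMI admitted 140 of the 309 cells, and Il7r alone, without Il1rl1, admitted 81. These Il7r-only cells were 44 of 78 in iWAT WT-Veh, 23 of 51 in iWAT ob/ob-Rosi and 2 of 13 in iWAT ob/ob-Veh. In eWAT they were 6 of 152 in ob/ob-Veh, 3 of 12 in ob/ob-Rosi and 3 of 3 in WT-Veh. Shares and levels compared below between depots or arms are thus taken over unlike mixes of cells with and without an Il1rl1 UMI. Among barcodes that missed the gate on 1 criterion, 2981 lacked only Gata3, and of these 7.15% had Areg and 10.5% Rora. As counts these were 213 cells with Areg and 314 with Rora, more than the 139 and 221 inside the gate. How many of them were ILC2s was not tested, which limits the shares given below. The 124 that lacked only a receptor had Areg in 6.45% and Rora in 17.7%. The 111 that lacked only Ptprc had Areg in 36.0% and Rora in 49.5%, closer to the gated cells than the other near misses.

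The gated cells were most frequent in the eWAT of obese, vehicle-treated mice. There they made up 99.3 and 78.7 per 10000 kept barcodes (91 and 61 cells), so that 152 of the 309 cells, or 49.2%, came from 2 of the 12 libraries. In eWAT WT-Veh, 0 and 3 cells were found (0, for which 3 counts would be 2.04 per 10000 and the exact 95% interval reaches 2.51, and 4.64 per 10000), and in eWAT ob/ob-Rosi 4 and 8 cells (4.24 and 7.95 per 10000). Both eWAT ob/ob-Veh libraries lay far above the other 4 eWAT libraries. In iWAT the order of the arms was another one. WT-Veh held 17.0 and 49.8 per 10000 (29 and 49 cells), ob/ob-Rosi 15.5 and 20.6 (15 and 36 cells) and ob/ob-Veh 8.33 and 9.72 (6 and 7 cells), so that ob/ob-Veh was lowest in iWAT and highest in eWAT.

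**Figure D1:**
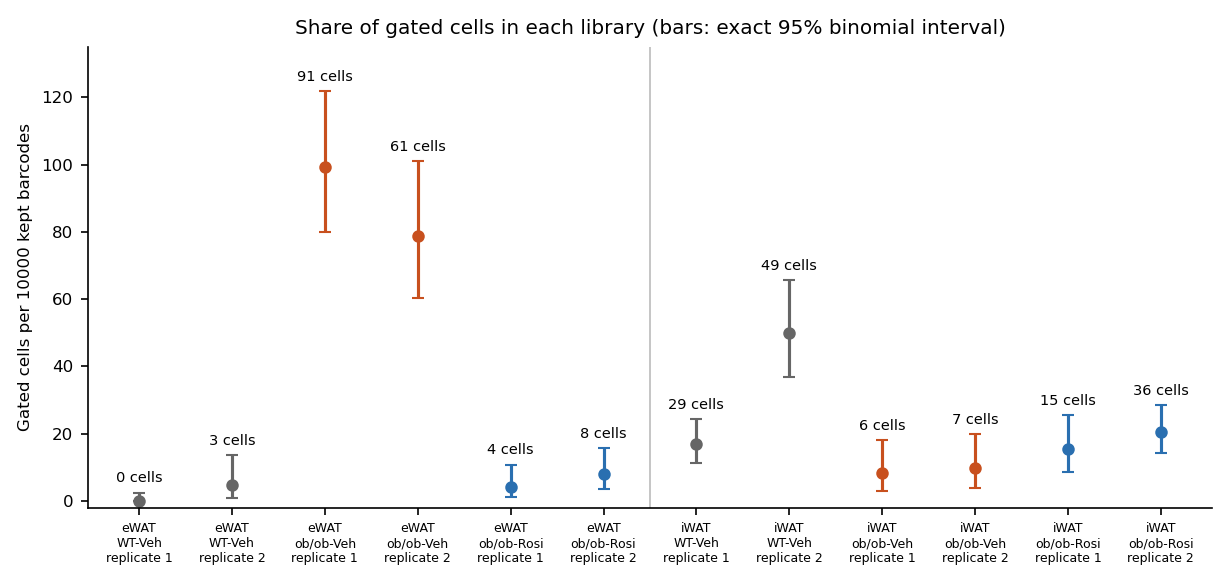
Gated cells per 10000 kept barcodes (y axis) in each of the 12 libraries (x axis), with the number of gated cells above each point and bars for the exact 95% binomial interval, which covers counting error only. The eWAT ob/ob-Veh libraries sit at 99.3 and 78.7, above all others, of which the highest is iWAT WT-Veh replicate 2 at 49.8.

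As means the shares in eWAT were 89.0 ± 14.6 per 10000 in ob/ob-Veh, 2.32 ± 3.28 in WT-Veh and 6.09 ± 2.62 in ob/ob-Rosi (SD, n = 2 libraries each). With the libraries of an arm pooled, the share in eWAT ob/ob-Veh was 63.5 times that in WT-Veh (95% interval 21.3 to 311) and 14.6 times that in ob/ob-Rosi (8.12 to 28.9). The first ratio rests on 3 WT-Veh cells of 1 library. It was 19.4 (6.51 to 95.04) without the empty eWAT WT-Veh replicate 1, and 38.4 as a ratio of the library means. In iWAT the means were 33.4 ± 23.2 in WT-Veh, 9.02 ± 0.983 in ob/ob-Veh and 18.0 ± 3.58 in ob/ob-Rosi. The pooled share in iWAT ob/ob-Veh was 0.311 times that in WT-Veh (0.159 to 0.564), 0.181 (0.0901 to 0.339) without iWAT WT-Veh replicate 1 and 0.531 (0.253 to 1.05) without replicate 2, and that in ob/ob-Rosi was 2.08 times that in ob/ob-Veh (1.12 to 4.17). These intervals are exact binomial ones, cover counting error only and say nothing of the spread between mice. Over libraries, the exact permutation test of 2 against 2 within a depot cannot give a p below 0.333, and it gave 0.333 wherever the arms did not overlap. They overlapped between ob/ob-Rosi and WT-Veh in both depots (exact p = 0.667).

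Averaged over the depots, the opposite directions partly cancelled. The share was 31.1 per 10000 higher in ob/ob-Veh than in WT-Veh (exact two-sided permutation p = 0.333 over 36 arrangements within depots), 36.9 lower in ob/ob-Rosi than in ob/ob-Veh (a difference of -36.9, exact p = 0.333) and 5.80 lower in ob/ob-Rosi than in WT-Veh (-5.80, exact p = 0.833). Without the library labelled iWAT WT-Veh replicate 1 the first difference was 22.9 and the last -14.0, and without iWAT WT-Veh replicate 2 the last turned to 2.41. The mean of 6 iWAT libraries, 20.2, did not differ detectably from that of the 6 eWAT libraries, 32.5 per 10000 (difference -12.3, exact permutation p = 0.444). Without iWAT WT-Veh replicate 1 this difference was -6.84 and without replicate 2 it was -17.8. The depots were then compared directly, in a test added after these shares were seen, which could not reach 0.05 and is no independent support of their opposite directions. The change from WT-Veh to ob/ob-Veh was 111 per 10000 greater in eWAT than in iWAT, and for the change from ob/ob-Veh to ob/ob-Rosi eWAT minus iWAT was -91.9 (exact permutation p = 0.0556 each, the smallest the 36 arrangements allow).

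The other lymphocytes of eWAT overlapped between ob/ob-Veh and WT-Veh. NK-gated cells numbered 106 and 102 per 10000 in eWAT ob/ob-Veh, 30.6 and 138 in WT-Veh and 21.2 and 150 in ob/ob-Rosi, so that all arms overlapped; whether the gated cells changed more than these was not tested. The CD3 cells of the same gate numbered 28.4 and 40.0 in ob/ob-Veh, 2.72 and 40.2 in WT-Veh and 4.24 and 14.9 in ob/ob-Rosi, and here ob/ob-Veh lay above ob/ob-Rosi but overlapped WT-Veh. In eWAT ob/ob-Veh there were 93.8 and 77.2 gated cells for every 100 NK-gated cells, against 0 and 3.37 in WT-Veh and 20 and 5.30 in ob/ob-Rosi. In iWAT the NK-gated cells numbered 17.0 and 212 in WT-Veh, 24.98 and 16.7 in ob/ob-Veh and 48.6 and 106.9 in ob/ob-Rosi. There WT-Veh overlapped ob/ob-Veh (exact permutation p = 0.667), and without WT-Veh replicate 2 the remaining WT-Veh value lay below the ob/ob-Veh mean of 20.8. In iWAT the CD3 cells of the same gate numbered 32.2 and 67.1 in WT-Veh and 2.78 and 6.94 in ob/ob-Veh. In ob/ob-Rosi they numbered 16.5 and 22.3. These arms did not overlap, and their means had the same order as those of the gated cells in iWAT. Counted per 10000 barcodes with a Ptprc UMI, the gated cells had means of 244 in eWAT ob/ob-Veh, 4.78 in WT-Veh and 13.4 in ob/ob-Rosi. On that scale the iWAT arms overlapped, with means of 77.6 in WT-Veh, 31.3 in ob/ob-Veh and 51.9 in ob/ob-Rosi.

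**Figure D2:**
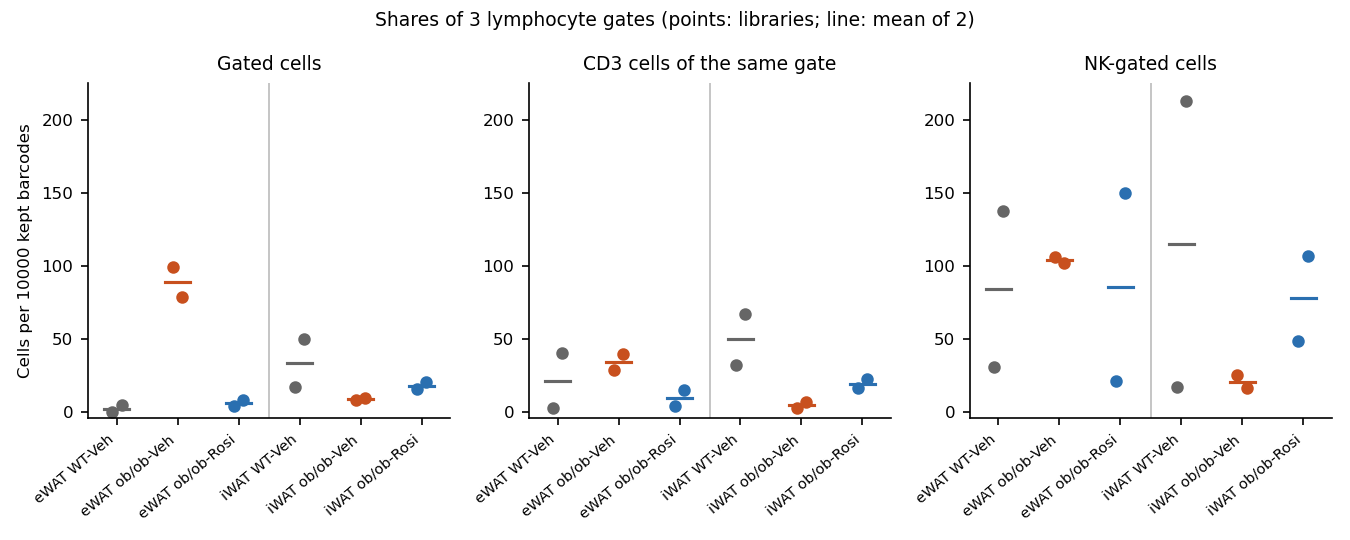
Cells per 10000 kept barcodes (y axis) for the gated cells, the CD3 cells of the same gate and the NK-gated cells by depot and arm (x axis); points are libraries and lines the mean of 2. The gated cells of eWAT ob/ob-Veh (mean 89.0) stand above the other eWAT arms, whereas the NK-gated cells of the 3 eWAT arms overlap (means 104 in ob/ob-Veh, 84.0 in WT-Veh and 85.6 in ob/ob-Rosi).

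The order of the eWAT arms was also found with equal depth per barcode and with a stricter gate. Thinned to 700 UMIs per barcode, the eWAT means were 46.4 in ob/ob-Veh, 1.55 in WT-Veh and 2.52 in ob/ob-Rosi, and with at least 2 Gata3 UMIs they were 56.3, 0.773 and 2.55. In iWAT the thinned means lay closer together, at 10.6 in WT-Veh, 6.94 in ob/ob-Veh and 8.88 in ob/ob-Rosi. With at least 2 Gata3 UMIs, iWAT WT-Veh replicate 1 (2.34) lay below both ob/ob-Veh libraries (4.16 and 2.78), so that the iWAT arms WT-Veh and ob/ob-Veh overlapped (exact permutation p = 1). Without cells that had a UMI of Trac, Trbc1, Trbc2, Cd4, Cd8a or Foxp3, the eWAT means were 47.6, 1.55 and 4.11 for ob/ob-Veh, WT-Veh and ob/ob-Rosi. In iWAT they were 6.25, 12.7 and 8.08 in the same order, and ob/ob-Rosi then overlapped ob/ob-Veh (exact permutation p = 0.667). Without cells that had a UMI of Csf1r, C1qa, Cdh5, Col1a1, Ms4a1 or S100a8, the means in that order were 54.7, 1.55 and 2.55 in eWAT and 1.39, 19.1 and 6.69 in iWAT, where 1 gated cell was left in each ob/ob-Veh library.

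Levels in the gated cells are given as CPM, the UMIs of a gene scaled to a fixed total of the UMIs summed over the gated cells of a library, in the 6 libraries that held at least 10 of them. Each molecule is tagged near its 3′ end, so a CPM counts transcripts and is not divided by length. Rora stood at 1862 and 2486 CPM in eWAT ob/ob-Veh, 625 and 972 CPM in iWAT WT-Veh and 823 and 523 CPM in iWAT ob/ob-Rosi. Both eWAT ob/ob-Veh libraries were above all 4 iWAT libraries. Areg, which encodes the EGFR ligand amphiregulin, stood at 1302 and 1031 CPM in eWAT ob/ob-Veh, 0 and 1482 CPM in iWAT WT-Veh and 2183 and 1883 CPM in iWAT ob/ob-Rosi; it was absent from the 29 cells of the iWAT library labelled WT-Veh replicate 1 and between 1031 and 2183 CPM in the others. The receptors used for the gate differed in their spread. Il1rl1 stood at 1891 and 1597 CPM in eWAT ob/ob-Veh, 168 and 549 CPM in iWAT WT-Veh and 859 and 508 CPM in iWAT ob/ob-Rosi, and was lowest in iWAT WT-Veh replicate 1, where 13.8% of the gated cells had a UMI of it against 97.8% and 93.4% in eWAT ob/ob-Veh. Il7r stood at 959.9 and 1125 CPM in eWAT ob/ob-Veh, 1273 and 1082 CPM in iWAT WT-Veh and 751 and 1285 CPM in iWAT ob/ob-Rosi, and Gata3 at 964 and 1165 CPM in eWAT ob/ob-Veh, 793 and 902 CPM in iWAT WT-Veh and 1252 and 1106 CPM in iWAT ob/ob-Rosi, without such a gap.

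Lmo4, a LIM-domain transcriptional cofactor, stood at 1487 and 1415 CPM in eWAT ob/ob-Veh, 360.3 and 1043 CPM in iWAT WT-Veh and 1073 and 762 CPM in iWAT ob/ob-Rosi. Il2ra, the high-affinity IL-2 receptor chain CD25, stood at 1162 and 1064 CPM in eWAT ob/ob-Veh, 120.1 and 509.7 CPM in iWAT WT-Veh and 859 and 359 CPM in iWAT ob/ob-Rosi. For both genes the eWAT ob/ob-Veh libraries were the highest and iWAT WT-Veh replicate 1 the lowest. Calca, which encodes the peptide CGRP, stood at 515 and 492 CPM in eWAT ob/ob-Veh, 48.0 and 282 CPM in iWAT WT-Veh and 679.8 and 433 CPM in iWAT ob/ob-Rosi, and Arg1, the arginase of tissue ILC2s, at 363 and 229 CPM in eWAT ob/ob-Veh, 0 and 321 CPM in iWAT WT-Veh and 143 and 149 CPM in iWAT ob/ob-Rosi. Klrg1, a receptor that marks mature ILC2s, stood at 292 and 263 CPM in eWAT ob/ob-Veh, 24.0 and 219.5 CPM in iWAT WT-Veh and 143 and 314 CPM in iWAT ob/ob-Rosi.

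Among the secreted products, Csf2 stood at 437 and 377 CPM in eWAT ob/ob-Veh, 24.0 and 259 CPM in iWAT WT-Veh and 250.5 and 59.8 CPM in iWAT ob/ob-Rosi. Il5 stood at 218 and 128 CPM in eWAT ob/ob-Veh, 0 and 62.7 CPM in iWAT WT-Veh and 215 and 74.7 CPM in iWAT ob/ob-Rosi, and was thus found in 5 of the 6 libraries. Il13 was sparser, at 74.2 and 67.4 CPM in eWAT ob/ob-Veh, 0 and 15.7 CPM in iWAT WT-Veh and 0 and 0 CPM in iWAT ob/ob-Rosi, and 8 of its 11 positive cells came from eWAT ob/ob-Veh. Il9, Il17a and Il22 had no UMI in the 6 libraries, and Il4 had 4.12 and 20.2 CPM in eWAT ob/ob-Veh and 0 in the other 4. Ccl1, a chemokine ligand of CCR8, stood at 82.4 and 115 CPM in eWAT ob/ob-Veh, 0 and 118 CPM in iWAT WT-Veh and 35.8 and 0 CPM in iWAT ob/ob-Rosi.

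**Figure D3:**
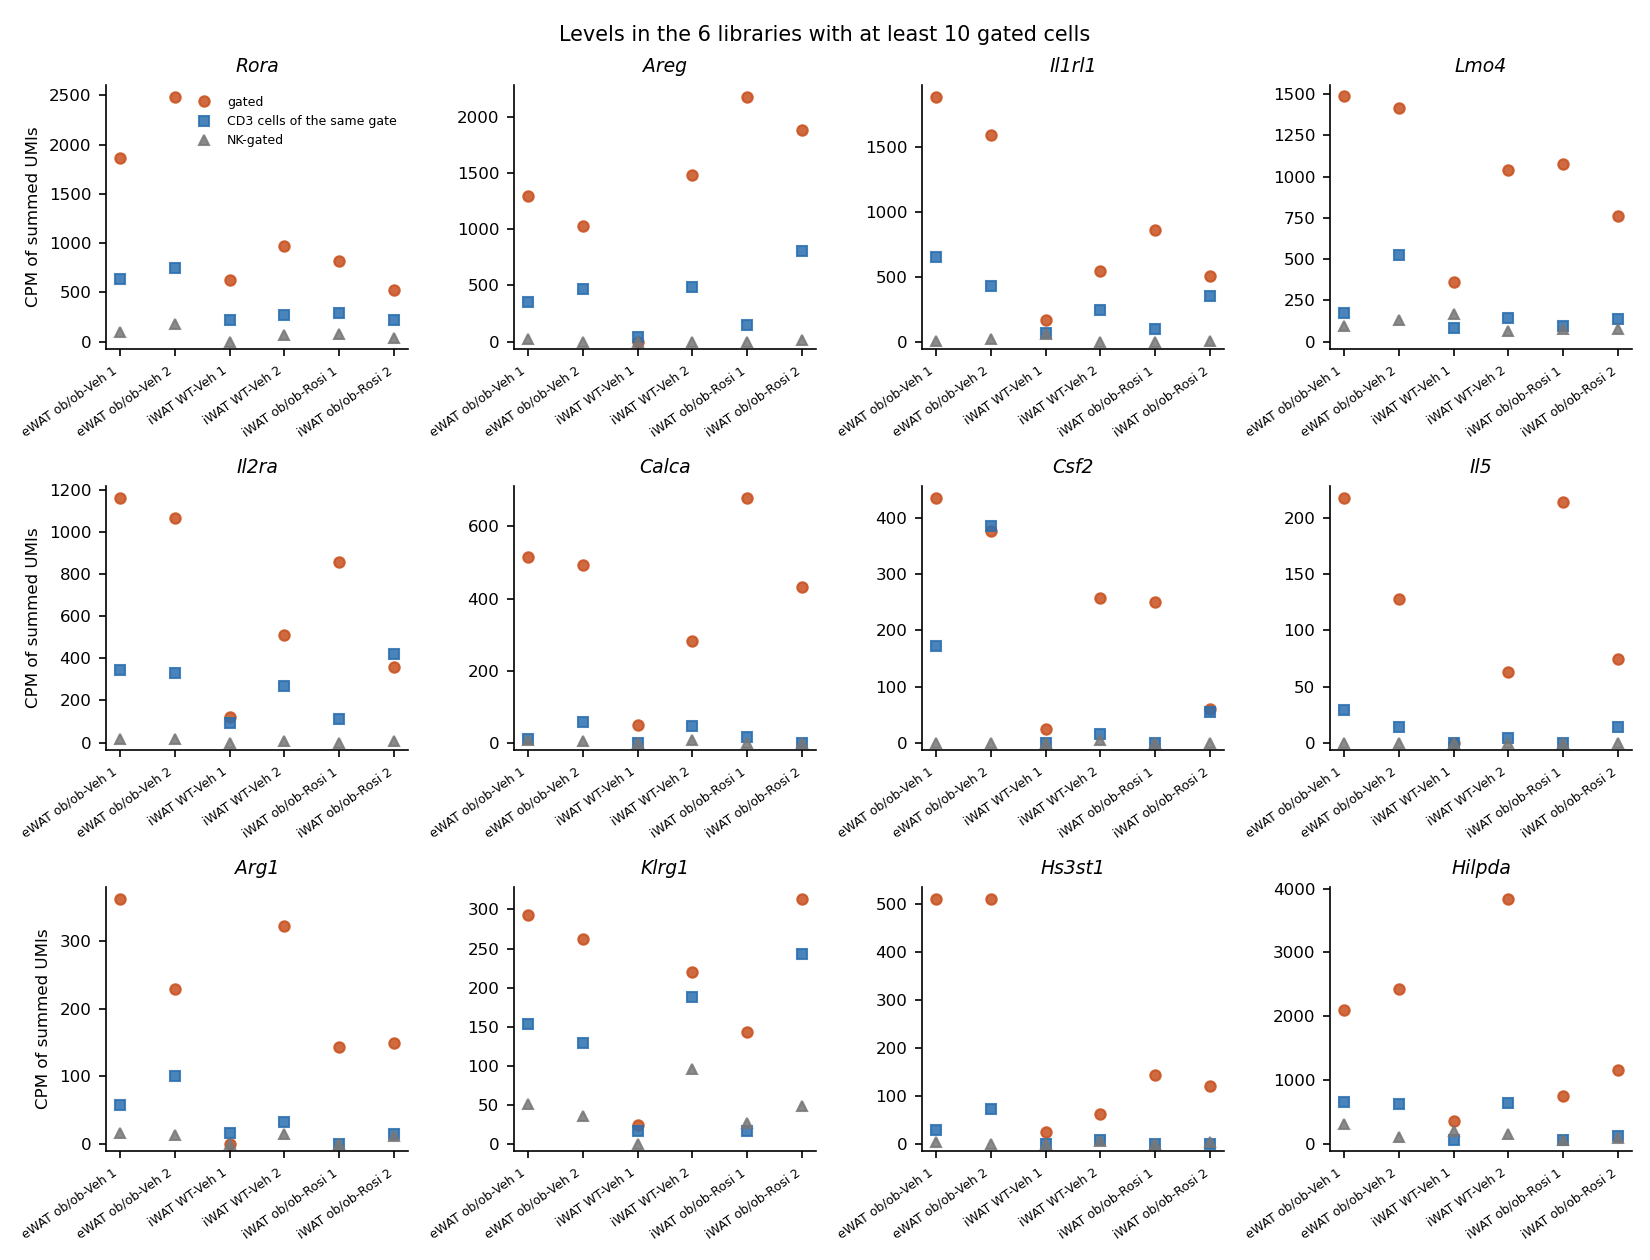
CPM of summed UMIs (y axis) for 12 genes in the 6 libraries with at least 10 gated cells (x axis), with circles for gated cells, squares for CD3 cells of the same gate and triangles for NK-gated cells. Hs3st1 reaches 511 and 512 CPM in the gated cells of eWAT ob/ob-Veh and at most 143 CPM in the 4 iWAT libraries, and Areg is at 0 in iWAT WT-Veh replicate 1.

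Genes of the PPAR and lipid-handling list differed widely between libraries. Pparg, which encodes PPARγ, stood at 74.2 and 26.9 CPM in eWAT ob/ob-Veh, 0 and 23.5 CPM in iWAT WT-Veh and 143 and 14.9 CPM in iWAT ob/ob-Rosi. These values rest on few UMIs, and differences of Pparg between libraries cannot be read from them. The 15 gated cells with 143 CPM held 27953 UMIs in all, and the 29 with 0 CPM held 41636. Ppara and Rxrg had no UMI in these libraries. Hilpda, a lipid-droplet protein that inhibits the lipase ATGL, stood at 2101 and 2425 CPM in eWAT ob/ob-Veh, 360.3 and 3842 CPM in iWAT WT-Veh and 751 and 1151 CPM in iWAT ob/ob-Rosi. Dgat1, which makes triglyceride, stood at 935 and 889 CPM in eWAT ob/ob-Veh, 288 and 212 CPM in iWAT WT-Veh and 501 and 89.7 CPM in iWAT ob/ob-Rosi, with the eWAT ob/ob-Veh libraries above all 4 iWAT ones. Fabp4, a fatty acid carrier of adipocytes, endothelium and macrophages, stood at 1104 and 519 CPM in eWAT ob/ob-Veh, 4732 and 972 CPM in iWAT WT-Veh and 23150.1 and 747 CPM in iWAT ob/ob-Rosi. It was highest in iWAT ob/ob-Rosi replicate 1. There the summed endothelial list reached 3184 CPM, against 102 to 1033 CPM in the other 5 libraries. Only 1 of the 15 gated cells of that library had at least 2 endothelial UMIs, so most of this sum lay in 1 barcode. The part of endothelial RNA in the Fabp4 value was not tested.

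The gated cells were next set against the CD3 cells of the same gate, which differ from them by rule in 3 genes only, in the 6 libraries that held at least 10 of each. Of 2958 genes tested outside the 13 gate genes, 182 were called (edgeR quasi-likelihood test on summed UMIs with the library as a block, adjusted p of 0.05 or less, 1.1-fold or more), which is 6.15% of those tested, 99 of them higher in the gated cells (3.35%) and 83 lower (2.81%). The share of 6.15% is the background for the list counts against CD3 cells below. The median log2 fold change of all genes was -0.03. Rora was at 1215 ± 784 CPM (SD, n = 6 libraries) in the gated cells and 393 ± 233 CPM in the CD3 cells and higher in 6 of 6 libraries (log2 fold change 1.59 ± 0.22 (SE), edgeR adjusted p = 9.89e-05). Areg was at 1313 ± 763 CPM and 384 ± 275 CPM, and higher in 5 of 6 (log2 fold change 1.68 ± 0.32 (SE), edgeR adjusted p = 0.00218). Both given markers that the gate had not used were thus called higher, and both were called with any single library left out.

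Of 34 other identity genes of ILC2s, which include Areg and Rora, 24 were tested, 9 were called higher and 4 lower, with a median log2 fold change of 0.75. Calca rose most among them, from 21.6 ± 24.6 CPM in CD3 cells to 408 ± 218 CPM in gated cells (log2 fold change 3.75 ± 0.37 (SE), edgeR adjusted p = 5.94e-06). Hs3st1, a heparan sulfate sulfotransferase, went from 18.0 ± 28.5 CPM to 229 ± 223 CPM (log2 fold change 3.49 ± 0.39 (SE), edgeR adjusted p = 1.23e-05). Lmo4 went from 191 ± 166 CPM to 1023 ± 419 CPM (log2 fold change 2.51 ± 0.27 (SE), edgeR adjusted p = 8.12e-06), higher in 6 of 6 libraries as were Calca and Hs3st1. The others called higher were Hes1, a Notch target (log2 fold change 2.78 ± 0.50), Arg1 (2.43 ± 0.40), the stem cell factor receptor gene Kit (2.38 ± 0.48) and Il2ra (1.25 ± 0.29), the last with 5 of 6 libraries. The 4 called lower were Tcf7 (-2.09 ± 0.44), Tnfrsf4 (-1.52 ± 0.45), Icos (-0.97 ± 0.25) and Thy1 (-0.81 ± 0.22), all of which T cells are known to express. Klrg1, Id2 and Cxcr6 had log2 fold changes of 0.75 ± 0.26, 0.89 ± 0.29 and 0.87 ± 0.37 and were not called.

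Of 21 effector cytokines and mediators, 10 were tested, 4 were called higher and none lower, with a median log2 fold change of 1.17. Beside Areg and Calca these were Il5 and Ccl1. Il5 was at 116 ± 87.6 CPM in gated and 10.1 ± 11.1 CPM in CD3 cells (log2 fold change 3.29 ± 0.51 (SE), edgeR adjusted p = 3.09e-04). Ccl1 had 53 UMIs in gated cells and 0 in the CD3 cells of the same 6 libraries, at least 20.6-fold higher when 3 UMIs over the group are taken as the floor. Csf2 had a log2 fold change of 1.47 ± 0.44 and an adjusted p of 0.0524 by edgeR and was not called.

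**Figure D4:**
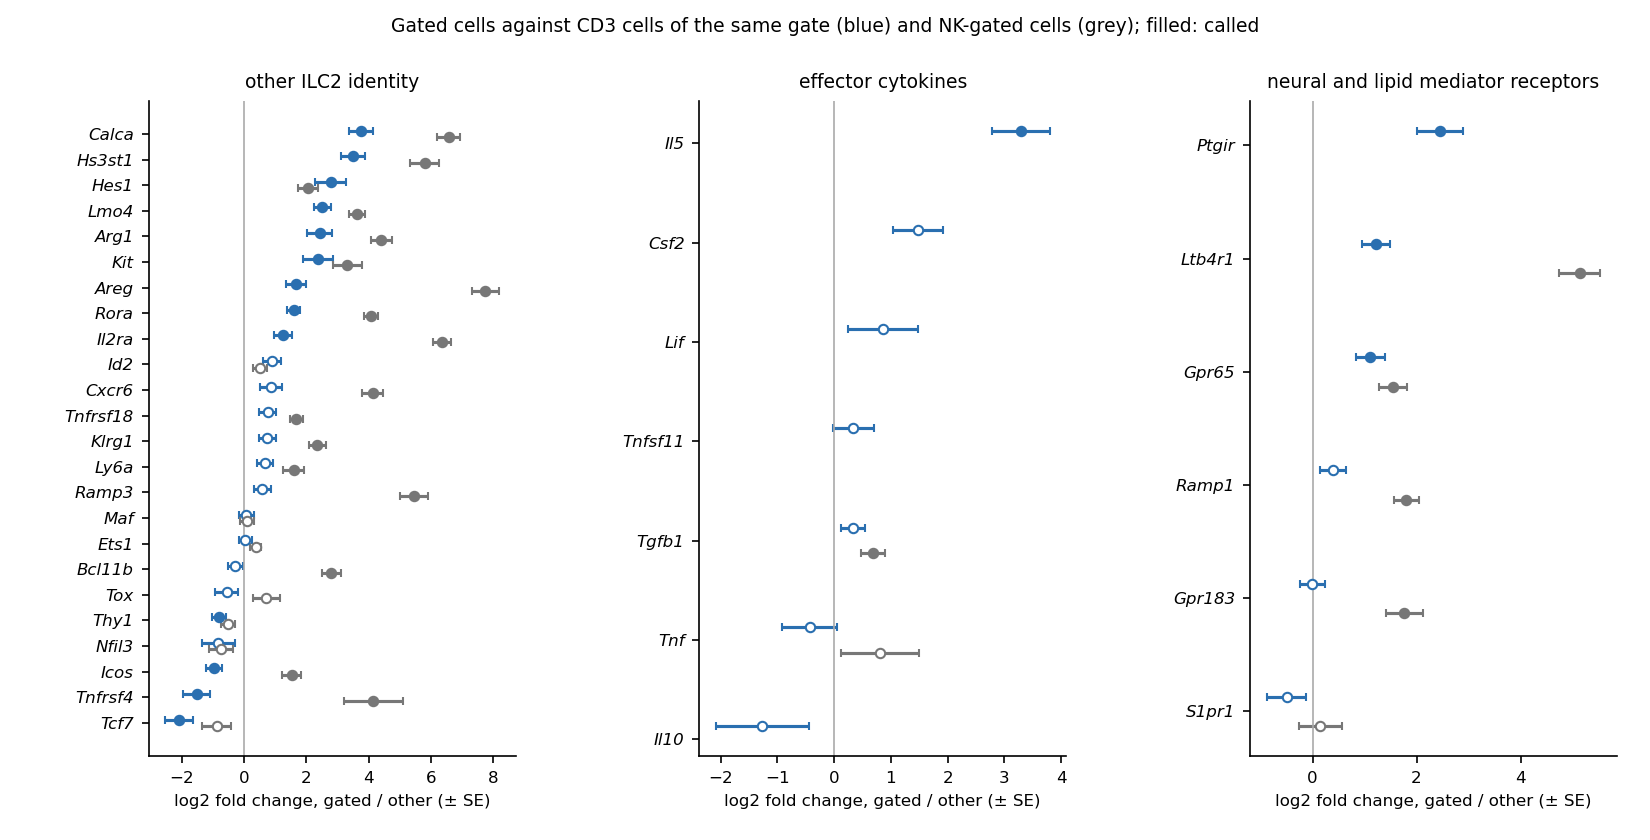
Log2 fold change with its SE (x axis) of the gated cells against CD3 cells of the same gate (blue) and NK-gated cells (grey) for the tested genes of 3 lists (y axis), with filled points for called genes; a contrast with 3 or fewer UMIs on a side is not drawn, and Areg and Calca are drawn in the first list only. Calca is highest in the first list against CD3 cells, at 3.75, and Tcf7 lowest, at -2.09.

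Receptors for cytokines, lipids and acid were split. Of 20 alarmin and cytokine receptors and costimulatory receptors 16 were tested, Il2ra and Il4ra (1.09 ± 0.24, SE) were called higher, and Icos, Tnfrsf4, Il18r1 (-1.30 ± 0.36) and Tnfrsf1b (-1.19 ± 0.35) lower. Of 17 receptors for neural and lipid mediators 7 were tested and 3 called, all higher: the prostacyclin receptor gene Ptgir (2.45 ± 0.44), the leukotriene B4 receptor gene Ltb4r1 (1.22 ± 0.27) and the proton sensor gene Gpr65 (1.11 ± 0.28), each higher in 6 of 6 libraries. Of 32 genes of the PPAR and lipid list 16 were tested. Of these 2 were called, too few to set apart from the 6.15% of all genes. They were Hilpda (2.41 ± 0.26, adjusted p = 8.12e-06 by edgeR) and Dgat1 (1.26 ± 0.30, adjusted p = 0.0140 by edgeR). Pparg was too sparse to be tested. None of 6 tested restraint receptors, which include Pdcd1 and Klrg1, was called.

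The activation list gave 3 genes higher and 2 lower of 19 tested. Nfkb1 was at 1562 ± 999 CPM and 556 ± 263 CPM (log2 fold change 1.35 ± 0.26 (SE), edgeR adjusted p = 0.00247), Nr4a1, an immediate-early nuclear receptor, had a log2 fold change of 1.47 ± 0.24 and Tnfaip3, an inhibitor of NF-κB, of 0.74 ± 0.22, each higher in 6 of 6 libraries, although Tnfaip3 was called in 2 only of the 6 fits that left out a library. Bcl2a1b (-1.31 ± 0.33) and Socs3 (-1.30 ± 0.35) were lower. Of 20 genes that respond to tissue dissociation, all tested, Fosb (0.98 ± 0.22) and Zfp36 (0.90 ± 0.22) were called higher. The part of the digestion in the levels of Nr4a1 and Tnfaip3 was not tested. The homing list gave 2 genes lower of 15 tested, among them Itga4, an integrin chain (-0.84 ± 0.24). The counts of the dissociation and homing lists are too small to set apart from the 6.15% of all genes.

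Of 37 tested genes from the lists of non-T cell types, 7 were called against CD3 cells (18.9%, beside 6.15% of all genes), 2 higher and 5 lower. Kit, on the mast cell list too, and the macrophage gene C1qb (1.02 ± 0.23) were called higher, and the dendritic cell gene Cd209a (-2.11 ± 0.47) and the neutrophil gene S100a9 were lower, as were Nkg7 (-1.68 ± 0.34), Klrk1 (-2.31 ± 0.42) and Ccl5 (-2.77 ± 0.42) of the 5 tested NK genes. No gene of the B cell, stromal, endothelial, mesothelial or ribosomal protein lists was called. Against NK-gated cells 14 of 46 were called (30.4%, beside 14.9% of all genes), 10 of them the NK list described below. Of the other 4, Igkc (0.88 ± 0.29), Hdc (2.95 ± 0.82) and Kit were higher and Mfap5 (-1.21 ± 0.40) lower. Of 4 tested T cell genes Tcrg-C1 was higher and Trbc1 (-0.70 ± 0.23) lower, and none of the 11 tested macrophage genes was called.

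Cycling and antigen-presentation genes were lower in the gated cells than in the CD3 cells. Of 7 tested cell cycle genes 4 were called lower, Top2a (-3.25 ± 0.44), Mki67 (-3.01 ± 0.43), Stmn1 (-2.34 ± 0.55) and Tubb5 (-1.09 ± 0.32). Of 6 tested MHC class II genes 5 were called lower, H2-DMb1 (-1.63 ± 0.35), H2-Aa (-1.48 ± 0.28), H2-Eb1 (-1.30 ± 0.27), Cd74 (-1.26 ± 0.31) and H2-Ab1 (-1.24 ± 0.29). The CD3 cells were deeper, with a median of 2304 UMIs against 1765 in the gated cells. After thinning to 700 UMIs only 34 of the 182 calls remained, and they are not listed by gene here. Against NK-gated cells none of 4 tested cell cycle genes (median log2 fold change -0.31) and none of 6 MHC class II genes (median -0.21) was called. None of the 4 tested interferon-response genes was called in either comparison.

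T cell genes outside the gate were lower in 7 of 11 tested. Trac, the constant part of the TCRα chain, was at 33.2 ± 33.6 CPM in gated and 277 ± 84.7 CPM in CD3 cells (log2 fold change -3.26 ± 0.37 (SE), edgeR adjusted p = 1.31e-05), Cd8b1 had no UMI in the gated cells (at least 18.9-fold lower), and Cd6, Cd4 and Trbc2 had log2 fold changes of -3.79 ± 0.65, -2.80 ± 0.61 and -1.57 ± 0.31. Trdc and Cd5 had 1 and 3 UMIs in the gated cells and 75 and 91 in the CD3 cells. Trbc1 was not called (-0.48 ± 0.22, adjusted p = 0.250 by edgeR), with 252 ± 102 CPM in gated and 394 ± 152 CPM in NK-gated cells, which do not rearrange the locus. These genes lie close to the criterion that separated the cells.

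Without gated cells that had a UMI of Trac, Trbc1, Trbc2, Cd4, Cd8a or Foxp3, 162 genes were called, 122 of them among the 182. Rora, Areg, Calca, Il5, Lmo4, Hilpda and Hs3st1 remained called. The filter left 53 of 91 and 29 of 61 gated cells in eWAT ob/ob-Veh. In iWAT it left 14 of 29 and 17 of 49 in WT-Veh and 9 of 15 and 12 of 36 in ob/ob-Rosi. Without the library labelled iWAT WT-Veh replicate 1, 205 genes were called, 158 of them shared. Without eWAT ob/ob-Veh replicate 1 or 2 the number fell to 88 and 75, of which 86 and 73 were among the 182. With the library not fitted as a block 26 genes were called, all among the 182.

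Beside the listed genes, the largest changes among called genes with at least 50 CPM on the higher side were these. Klf5, a Krüppel-like factor, had 82 UMIs in gated and 5 in CD3 cells (3.82 ± 0.68, log2), Nrgn, a calmodulin-binding protein, 189 and 17 (3.43 ± 0.47), Ccdc184 143 and 15 (3.30 ± 0.43) and Tmem158 65 and 6 (3.30 ± 0.79). Klf5 and Tmem158 were called in 5 and 3 of the 6 fits that left out a library, and Nrgn and Ccdc184 in all 6. On the lower side, Gramd3 (-4.59 ± 0.58) and Gm8369 (-3.22 ± 0.72) joined Cd8b1, Trdc, Cd5, Cd6, Trac and Top2a.

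Against NK-gated cells the difference was wider. Of 3660 genes tested 546 were called (14.9%), 331 higher in the gated cells (9.04%) and 215 lower (5.87%), around a median log2 fold change of -0.05. Areg was at 1313 ± 763 CPM in gated and 6.16 ± 11.1 CPM in NK-gated cells (log2 fold change 7.74 ± 0.43 (SE), edgeR adjusted p = 1.45e-11), and Rora at 1215 ± 784 CPM and 74.4 ± 59.1 CPM (log2 fold change 4.07 ± 0.23 (SE), edgeR adjusted p = 9.33e-12). Il5 had 91 UMIs in gated and 0 in NK-gated cells, at least 80.2-fold higher. Csf2, Ptgir, Ccdc184 and Dach2 had 207, 89, 143 and 117 UMIs in gated cells and 3, 2, 2 and 1 in NK-gated cells. Calca and Il2ra were higher by 6.56 ± 0.37 and 6.35 ± 0.29 on the log2 scale.

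Of the 24 tested identity genes 17 were called higher than in NK-gated cells and none lower, with a median log2 fold change of 2.58. They included Cxcr6 (4.13 ± 0.33), Bcl11b (2.80 ± 0.31), Ramp3, a partner of the CGRP and adrenomedullin receptor (5.46 ± 0.46), and Klrg1 (2.35 ± 0.28), none of which was called against CD3 cells. Icos, called lower against CD3 cells, was higher than in NK-gated cells (1.53 ± 0.31). Of 11 tested effector genes 8 were higher, and Ifng, which NK cells and ILC1s express, was lower, with 3 UMIs against 101. Restraint receptors were higher in 4 of 5, among them Pdcd1, which encodes PD-1 (4.51 ± 0.59). Neural and lipid mediator receptors were higher in 6 of 8, with Ltb4r1 at 5.14 ± 0.39. Hilpda (3.77 ± 0.32) and Dgat1 (1.45 ± 0.28) were again the called genes of the lipid list, too few to set apart from the 14.9% of all genes.

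Cytokine receptors were split 8 higher and 5 lower of 17. Il4ra (1.78 ± 0.24) and Il2rg (1.31 ± 0.19) were higher. The IL-15 receptor chain Il2rb (-2.03 ± 0.23) and the IL-18 receptor genes Il18r1 (-1.65 ± 0.34) and Il18rap (-1.13 ± 0.23) were lower. Activation genes were split 8 to 4, with Nfkb1 (3.15 ± 0.22), Cish (3.15 ± 0.29) and Odc1 (2.31 ± 0.22) higher and the NK cell factors Tbx21 (2 UMIs against 179) and Eomes (3 against 224) lower. Among homing genes Cd69, a marker of tissue residence, was higher (2.63 ± 0.26), and of the 15 tested 4 were higher and 6 lower. Dissociation-response genes were higher in 7 of 19. All 10 genes of the NK and ILC1 list were lower, with Gzma at 39.1 ± 50.9 CPM against 2100.2 ± 894 CPM (-5.80 ± 0.46). Gzmb and Klra8 had 2 and 1 UMIs in gated cells and 678 and 440 in NK-gated cells, Ccl4 was lower by -5.61 ± 0.45, and Klra4, Klri2, Klra3 and Gpc1 had no UMI in gated cells (at least 65.1-, 27.0-, 23.7- and 12.7-fold lower). The NK gate was set on 2 genes of this lineage and required the absence of Gata3, so the directions of the NK list and of the ILC2 identity list are close to the rule.

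The same gated cells enter the comparisons with CD3 and with NK-gated cells. Without the iWAT library labelled WT-Veh replicate 1, 610 genes were called against NK-gated cells, 519 of them among the 546. Without the gated cells that had a T cell receptor, Cd4, Cd8a or Foxp3 UMI 327 were called, 295 of them shared, and without eWAT ob/ob-Veh replicate 2 361 were called, 356 of them shared.

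Between arms and depots almost no gene was called within the gated cells in the main fits, which had no replicate block. Those over 11 libraries gave more calls with the replicate number as a block, as stated in the last paragraph. With every library that held a gated cell (11 libraries, 1317 genes tested), none was called between ob/ob-Veh and WT-Veh (0% by edgeR). At an unadjusted p below 0.05 there were 59 genes higher and 102 lower, and DESeq2 gave 12 calls. Between ob/ob-Rosi and ob/ob-Veh 1 gene was called (0.0759%), and between iWAT and eWAT 1 (0.0759%). The first was Fn1, the matrix protein fibronectin, with a log2 fold change of -3.46 ± 0.75 (SE, edgeR adjusted p = 0.0459). It stood at 964, 303, 1426 and 1264 CPM in the eWAT and iWAT ob/ob-Veh libraries and at 267, 65.1, 0 and 74.7 CPM in the ob/ob-Rosi ones, which did not overlap. The values of 1426 and 1264 CPM rested on 6 and 7 gated cells. Those of 267 and 65.1 CPM rested on 4 and 8 cells with 3741 and 15373 UMIs, so the separation rests on few UMIs. The second was Mgp, a stromal matrix protein, lower in iWAT (-3.65 ± 0.70 SE, edgeR adjusted p = 0.00608). Its levels of 2942 and 1513 CPM rested on the 4 and 3 gated cells of eWAT ob/ob-Rosi replicate 1 and eWAT WT-Veh replicate 2. Stromal RNA was present in these cells, with summed stromal levels of 447 to 5845 CPM and at least 2 stromal UMIs in 75.1% of the 309, and its part in the Fn1 and Mgp values was not tested. Both calls were lost after thinning and without cells with a T cell UMI. They were also lost without cells carrying a Csf1r, C1qa, Cdh5, Col1a1, Ms4a1 or S100a8 UMI and with limma-voom. The limma-voom fit took same-numbered libraries of an arm as a random block. The call of Fn1 was lost with library size alone as well. Leaving out iWAT ob/ob-Rosi replicate 1 raised the calls between ob/ob-Rosi and ob/ob-Veh to 52.

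The 5 genes with the smallest p in each comparison were not called unless named above. Between ob/ob-Veh and WT-Veh they included Lif, at 74.1, 195, 2281 and 1167 CPM in ob/ob-Veh and 0, 0 and 15.7 CPM in WT-Veh, Lgals3 (-3.08 ± 0.80) and Rpl12 (-2.61 ± 0.72), at edgeR adjusted p of 0.135 or more. For Lif the values of 2281 and 1167 CPM came from the 6 and 7 gated cells of iWAT ob/ob-Veh. The first 0 is that of eWAT WT-Veh replicate 2, whose 3 gated cells held 4627 UMIs. For ob/ob-Rosi against ob/ob-Veh, Lgals3 (2.94 ± 0.71), Atp2a2 (-4.62 ± 1.22), Ern1 (-4.58 ± 1.24) and Retnla (-2.67 ± 0.75) followed Fn1, and for the depots F13a1, Rsrp1, Timp3 and Retnla followed Mgp. Lgals3, galectin-3, thus lay on opposite sides in the 2 contrasts, which share the ob/ob-Veh libraries. The depot differences of the arm contrasts gave no call (0% by edgeR, smallest adjusted p 0.415 and 0.397). At an unadjusted edgeR p below 0.05 the first had 148 genes higher and 3 lower, the second 5 higher and 151 lower. The first rests in part on the 3 gated cells of eWAT WT-Veh, with 4627 UMIs in all, and the 13 of iWAT ob/ob-Veh. The second rests in part on the 12 of eWAT ob/ob-Rosi and the same 13. Whether these lopsided counts go beyond such small groups was not tested. By DESeq2 0 and 10 genes passed. The smallest p values of the first were those of Hilpda, Lgals1, Ubl5, Cox7a2 and S100a4, with log2 fold changes of 10.1 to 13.9. Those of the second belonged to Fabp4, Rpl32, Hs3st1, Rps14 and Ctla2a. The part of endothelial RNA in the Fabp4 levels was not tested.

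In the libraries with at least 10 gated cells, a planned comparison could be made only between iWAT ob/ob-Rosi and iWAT WT-Veh (1963 genes tested). No gene was called (0% by edgeR and none by DESeq2, while an unadjusted p below 0.05 was reached by 14 genes that were higher and 16 that were lower), and the smallest p values belonged to Igfbp7 (3.13 ± 0.91), Arid1a (-3.42 ± 1.04), Trip11, Tmem88 and Atp2b4. The comparison has 2 libraries a side and few cells, so that a change could be missed at this depth.

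The gated cells of eWAT ob/ob-Veh, the largest pair, were also set against the 4 iWAT libraries, a comparison added after the cell numbers were seen, in which depot and arm cannot be told apart. No gene was called in it (0% by edgeR and none by DESeq2, with an unadjusted p below 0.05 for 100 genes that were higher and 58 that were lower), and the 4 smallest adjusted p were 0.144. They belonged to Hs3st1 (2.61 ± 0.46), at 511 and 512 CPM in eWAT ob/ob-Veh, 24.0 and 62.7 CPM in iWAT WT-Veh and 143 and 119.5 CPM in iWAT ob/ob-Rosi, to Lyz1 (3.42 ± 0.65), to the macrophage chemokine Ccl8 (-3.97 ± 0.78) and to Pf4 (-2.45 ± 0.49). Ccl8 stood at 16.5 and 0 CPM in eWAT ob/ob-Veh, 264 and 102 CPM in iWAT WT-Veh and 179 and 179 CPM in iWAT ob/ob-Rosi and Pf4 at 41.2 and 80.8 CPM in eWAT ob/ob-Veh, 336 and 267 CPM in iWAT WT-Veh and 358 and 329 CPM in iWAT ob/ob-Rosi. The summed macrophage list moved the same way as these last, at 1602 and 1111 CPM in eWAT ob/ob-Veh against 2003 to 3386 CPM in the 4 iWAT libraries, and its part was not tested. The count depended on single libraries: 43 genes were called without iWAT ob/ob-Rosi replicate 1 and 13 without iWAT WT-Veh replicate 1. It was 0 without any other single library, except 1 without eWAT ob/ob-Veh replicate 1.

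RNA of other lineages was present in the gated cells in spite of the gate. Lyz2, the macrophage lysozyme, was found in 66.7% of the 309 cells, and in 69.6% of the CD3 cells and 71.1% of the NK-gated cells, which should lack it. At least 2 UMIs of the macrophage list were found in 65.7%, of the T cell list in 33.0%, of the B cell list in 21.7% and of the NK and ILC1 list in 8.74%. In the same order of lists the shares were 74.3%, 48.1%, 13.7% and 93.9% of the NK-gated cells. In the CD3 cells of the same gate they were 74.0%, 86.5%, 22.1% and 32.5%. At least 2 UMIs of the ILC2 identity list were found in 96.1% of the gated cells, and in 89.6% after thinning. In iWAT WT-Veh replicate 1 these shares were 75.9% and 55.2%. Without the same shares in the comparison cells they do not set the gated cells apart. The gate's own exclusions kept Adgre1, Cd79a, Pdgfra and Cpa3 at 0, and Pax5, Fcgr1, Fcer1a and Ms4a2 were at 0 without being part of it. Igkc, an antibody light chain of B cells, stood at 268 and 391 CPM in eWAT ob/ob-Veh, 216 and 0 CPM in iWAT WT-Veh and 143 and 0 CPM in iWAT ob/ob-Rosi. Hdc, the histidine decarboxylase of mast cells and basophils, stood at 157 and 121 CPM in eWAT ob/ob-Veh, 24.0 and 0 CPM in iWAT WT-Veh and 35.8 and 0 CPM in iWAT ob/ob-Rosi, highest in eWAT ob/ob-Veh as well. In the 29 gated cells of iWAT WT-Veh replicate 1, 3 genes picked after their values were seen stood above the other 5 libraries of eWAT ob/ob-Veh, iWAT WT-Veh and iWAT ob/ob-Rosi, with no test. Tcf7 stood there at 264 CPM against 12.4 to 39.2, Lef1 at 216 CPM against 0 to 31.4 and Ccr7 at 240 CPM against 0 to 16.5.

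The signals that ILC2s are known to receive were measured in the cells with a Pdgfra UMI, the adipose progenitors and fibroblasts of the same libraries, and are given as levels without a test. Il33, which encodes the alarmin read by ST2, stood at 16.3 and 20.8 CPM in eWAT ob/ob-Veh, 25.03 and 17.7 in eWAT WT-Veh and 36.2 and 41.7 in eWAT ob/ob-Rosi, so that both Rosi libraries lay above the other 4. In iWAT it stood at 40.0 and 28.6 in ob/ob-Veh, 23.8 and 42.2 in WT-Veh and 39.7 and 40.0 in ob/ob-Rosi, overlapping. Tslp stood at 17.3 and 25.9 CPM in eWAT ob/ob-Veh, above 7.57 and 6.50 in WT-Veh and 9.38 and 7.31 in ob/ob-Rosi. In iWAT Tslp stood at 12.2 and 16.2 in ob/ob-Veh, 3.91 and 7.77 in WT-Veh and 9.45 and 9.07 in ob/ob-Rosi, again without overlap of ob/ob-Veh and the other arms. The ob/ob-Veh libraries thus had the highest Tslp of both depots. They held the most gated cells in eWAT and the fewest in iWAT. Whether Tslp and the number of gated cells are related was not tested. Il7 was low, at 0.433 to 2.72 CPM, and Il25 had 6 UMIs in all.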

How the data were processed

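Single-cell RNA sequencing of the SVF was done by the authors on the 10x Genomics 3′ platform. Per the submitters' processing notes, reads were processed with bcl2fastq 2.19.1.403 and Cell Ranger 3.0.2 against mm10, and the authors deposited the raw UMI counts of 31053 genes in every barcode, 1 matrix for each of the 12 libraries. The iWAT matrices held no barcode above 22000 UMIs or at 25% mitochondrial UMIs or more, so they had been filtered before deposit; the eWAT ones had not. No doublet caller was run and free RNA was not removed.

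Barcodes were kept and gated as stated in the text. The gate, the gene lists (27 lists, 424 genes) and the tests were chosen with earlier results of these data known. Shares were compared by exact permutation over libraries within depots. UMIs of the gated cells were summed per library and tested with edgeR 4.0.16 (quasi-likelihood, TMM, Benjamini-Hochberg adjustment, R 4.3.3), without the 13 gate genes. Libraries with at least 10 gated cells were to be used. This left 6, in which the comparisons averaged over depots could not be estimated, so these used the 11 libraries with at least 1 gated cell (5 residual degrees of freedom). Named genes were the gate genes and markers, each list's called genes and up to 6 most abundant members, the 8 largest called changes in each direction against CD3 and NK-gated cells at 50 CPM or more on the higher side, and, where fewer than 5 genes were called between arms or depots, the 5 smallest p values. Alternatives were DESeq2 1.42.0, library size alone, no filter on low counts, thinning to 700 UMIs, stricter gates, a replicate block, limma-voom (limma 3.58.1) and leaving out each library. The limma-voom fit took same-numbered libraries of an arm as a random block. The labels call replicates biological but do not say which eWAT and iWAT libraries came from 1 mouse. Intervals cover counting error only. A few genes that the naming rule selects are not reported here.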

Additional observations from a re-analysis of the deposited data

Results flagged for a closer look

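The change in the share of gated cells was compared between the depots in both contrasts of arms, a test added after the shares of each depot had been seen. From WT-Veh to ob/ob-Veh it was 111 per 10000 kept barcodes greater in eWAT than in iWAT. From ob/ob-Veh to ob/ob-Rosi, eWAT minus iWAT was -91.9. In both, the exact permutation p over 36 arrangements was 0.0556, the smallest these allow, so neither could pass 0.05. The contrasts share the ob/ob-Veh libraries. Leaving out a library in turn gave 94.7 to 127 for the first and -102 to -81.6 for the second. After thinning to 700 UMIs they were 48.5 and -45.8. The exact p was 0.111 for both per 10000 barcodes with a Ptprc UMI, 0.167 for the first with at least 2 Gata3 UMIs, 0.111 for the first without iWAT ob/ob-Veh replicate 1 or 2, and 0.111 for the second without cells with a T cell UMI.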

How the results depend on the processing

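The share differences kept their direction in 93 of 94 alternatives; the difference between ob/ob-Rosi and WT-Veh, -5.80 per 10000, ranged from -14.0 to 2.41 when a library was left out and turned without iWAT WT-Veh replicate 2. With groups of 2 libraries and few gated cells, counts of genes called between arms and depots moved in 22 alternatives and 31 fits that left out a library and stayed within 1.5 times in 50 and 33; the cause was not tested. For ob/ob-Rosi against ob/ob-Veh (1 called) there were 0 with library size alone, 0 after thinning and 0 without cells with a T cell UMI. There were also 0 without cells with a UMI of another lineage and 0 with limma-voom and its random block. By DESeq2 there were 7, and with a library left out 0 to 52 (52 without iWAT ob/ob-Rosi replicate 1). For iWAT against eWAT (1 called) there were 0 after thinning, 0 without cells with a T cell UMI, 0 without cells with a UMI of another lineage and 0 with limma-voom, and 0 to 2 with a library left out. For ob/ob-Veh against WT-Veh (0 called) DESeq2 gave 12, and leaving out a library 0 to 17, with 17 without iWAT WT-Veh replicate 1. The depot differences gave 0 to 2 and 0 to 8 with a library left out, and DESeq2 gave 10 for the second. For iWAT ob/ob-Rosi against WT-Veh there were 2 without the filter, 1 in libraries with at least 20 gated cells and 0 to 1 with a library left out. For eWAT ob/ob-Veh against iWAT there were 25 without the filter, 24 without cells with a UMI of another lineage, 43 in libraries with at least 20 gated cells, which is the fit without iWAT ob/ob-Rosi replicate 1, and 0 to 43 with a library left out.

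Against CD3 cells (182 called) 40 genes were called after thinning (34 of them among the 182, of which 81 were tested), 26 with no library block, and 75 to 205 with a library left out. Against NK-gated cells (546 called) 295 genes were called after thinning (240 of them among the 546, of which 292 were tested), 327 without cells with a T cell UMI (295 among the 546), 196 with no library block, and 361 to 610 with a library left out; without the filter, 325 were higher and 326 lower.

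Whether same-numbered libraries of an arm came from the same mouse could not be decided. The correlations of deviations from the group means ranged from 0.0916 to 0.441 over 3 pairs. These pairs were taken among eWAT ob/ob-Veh, iWAT WT-Veh and iWAT ob/ob-Rosi, so none joined the depots of an arm. The limma-voom fit, with same-numbered libraries of an arm as a random block, gave a correlation of 0.272 within blocks. Whether that value reflects pairing was not tested. With the replicate number as a block, 3 genes were called for ob/ob-Veh against WT-Veh, 23 for ob/ob-Rosi against ob/ob-Veh, 4 for iWAT against eWAT, 25 and 10 for the depot differences, and 0 for iWAT ob/ob-Rosi against WT-Veh and for eWAT ob/ob-Veh against iWAT.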
